A study of Homo sapiens with 6 samples.

Results

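NFE2L2, KEAP1, NQO1, GCLC, GCLM, HMOX1, TXNRD1, SRXN1 and OSGIN1 were chosen by exact symbol, which found 9 genes, 1 row each, among the 31628 genes of the expression table. They are the NRF2 antioxidant genes, and their transcripts were followed through treatment with IAA, which degrades a tagged ENL protein, and its removal. After 3 h of IAA OSGIN1 rose 1.61-fold, NFE2L2 1.43-fold and GCLC 1.28-fold, whereas HMOX1 and GCLM stood at 0.998 and 1.02 of control. After IAA had been washed out for 48 h NFE2L2 stood at 0.973 of control, and OSGIN1 lay between its control and IAA levels.

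Poly(A) RNA was sequenced from HCT116 cells, a human colon cancer line, in which ENL, a reader of histone acetylation encoded by MLLT1, carries an auxin-inducible degron. All groups also express AtAFB2, a plant F-box protein that hands degron-tagged proteins to a ubiquitin ligase once auxin is bound, and the cells were selected with puromycin and blasticidin. The groups, of 2 libraries each, were control (no IAA), IAA (the auxin indole-3-acetic acid for 3 h, at a dose written as 500 um) and washout (the same IAA treatment, rinsed off with PBS, and 48 h more of growth in unsupplemented culture). Cells without the degron that were given IAA were not analysed here, so an effect of IAA itself and an effect of ENL loss cannot be told apart. The same holds for removal of IAA and the 48 h of added culture. The labels do not say whether the 2 libraries of a group came from separate cultures, so p-values measure only the spread between these libraries, and the number of AID clones behind them is not given.

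NRF2, the protein made from NFE2L2, is a transcription factor that is bound by KEAP1 and handed to a ubiquitin ligase in unstressed cells. Electrophiles and oxidants modify KEAP1, NRF2 then accumulates, pairs with small MAF proteins and binds antioxidant response elements near its target genes. Because this control acts on the protein, transcripts of NFE2L2 and KEAP1 do not show how much NRF2 is active. The targets make glutathione, reduce quinones and thioredoxin, break down heme and repair oxidised proteins, and they are often raised in tumours that have lost KEAP1 function.

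Library totals read from the FPKM steps ran from 16440000 to 16770000 reads, and Pearson's r on log2(FPKM + 1) across genes was 0.991 to 0.993 between libraries of 1 group and 0.986 to 0.987 between control and IAA libraries (genes are not independent replicates). Reads recovered from the same steps summed to more than the total in every library, 17077098 to 17377231. The cause of this mismatch was not tested. Levels over exons below use the totals, and limma-voom uses the sums. All 8 epithelial markers had a mean FPKM of at least 1, and 0 of the 6 fibroblast, 3 matched endothelial (of 4) and 5 blood markers did, with CD3E at 0 in every library. VIL1 reached that mean only through the IAA group (1.14 FPKM, against 0.919 in control and 0.946 after washout). The summed FPKM of the epithelial markers was 342 to 352 in control, 274 to 278 with IAA and 330 to 345 after washout. KRT18 and KRT19, at 170.8 and 131.5 FPKM in control, were the largest terms of that sum. Of the 8 markers 3 fell with IAA by limma, KRT8, KRT18 and KRT19, and 0 rose (13.1% of all genes tested changed). The log2 change was above 0 for 4 of the 8. On recovered reads limma-voom had CDX2 and VIL1 higher, and EPCAM lower beside the 3 keratins (23.9% of all genes changed). The part of these shifts in the results below was not tested. MLLT1 reads numbered 459 and 480 in control libraries, 445 and 402 in IAA libraries and 463 and 428 in washout libraries, with no change detected (limma-voom on recovered reads, log2 change -0.14, adjusted p = 0.331). The degron acts on the ENL protein, which was not measured.

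The deposited FPKM, read counts scaled by library total and gene length, appear to divide by the whole span of a gene, introns included, which the labels do not state. Of the genes whose span is over 2 times their exon length, 77.6% gave whole reads with the span and 0.65% with the exon length. The library totals behind both shares were themselves read from the spans. No total was fitted for the exon length, so the 2 shares are not an even comparison. Exons make up 3.62% of the span of NFE2L2 and 4.99% of that of TXNRD1, but 39.9% of that of SRXN1, so FPKM cannot be compared between these genes. Reads were therefore recovered from the FPKM steps and divided by the exon length in GENCODE 29, which gave an FPKM over exons. This scale assumes that reads were counted over exons only, which no source used here states and which was not tested. It also takes all exons of a gene in GENCODE 29 as its length, and an error in that length shifts all libraries of the gene alike. The order of levels below holds under both assumptions, and overlap between libraries does not measure that error.

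On that scale NQO1, a quinone reductase, was the highest of the 9 genes in control, at 165 and 175. TXNRD1, the cytosolic thioredoxin reductase, followed at 120.0 and 120.2. NFE2L2 stood at 36.3 and 37.8 and KEAP1 at 32.9 and 34.1, without overlap. The 2 subunits of the enzyme that starts glutathione synthesis came next, the catalytic GCLC at 12.3 and 13.2 and the modifier GCLM at 11.5 in each library. The lowest were HMOX1, which opens the heme ring, at 7.59 and 7.79, SRXN1, which restores overoxidised peroxiredoxins, at 6.37 and 7.83, and OSGIN1, an oxidative stress-induced growth inhibitor, at 6.25 and 6.66. The libraries of SRXN1 enclosed those of HMOX1 and overlapped those of OSGIN1, so the place of SRXN1 beside these genes is not resolved, while HMOX1 lay above OSGIN1 without overlap. With IAA, OSGIN1 stood at 10.1 and 10.7, above all IAA libraries of HMOX1 (7.56 and 7.79) and SRXN1 (7.52 and 8.41).

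**Figure D1:**
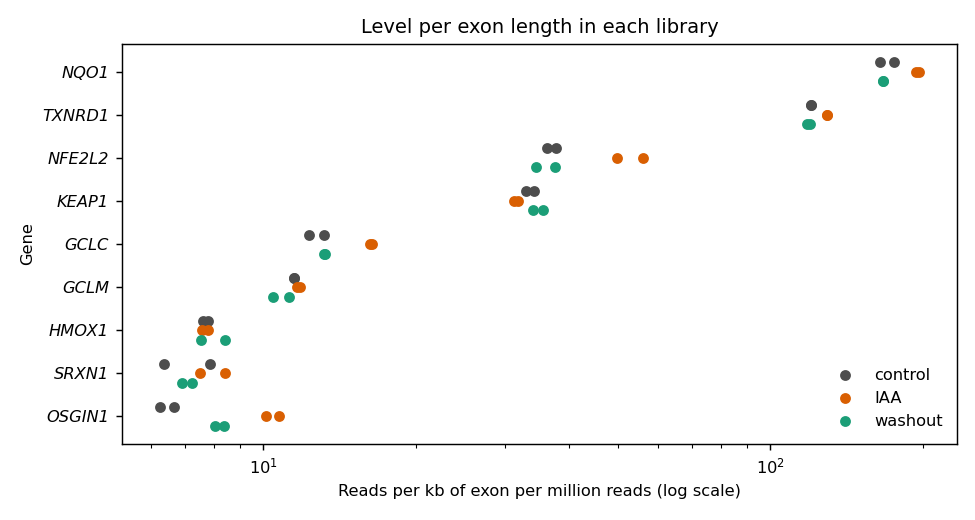
FPKM over exons (reads per kb of exon, scaled to library total, log axis) for the 9 genes, ordered by their control mean, with 1 point per library and a colour per group (2 libraries each). NQO1 and TXNRD1 lie above 100, and OSGIN1 and NFE2L2 show IAA points to the right of their control and washout points.

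The letters before the starts of these genes were read from RefSeq promoters (GRCh38.p14), which matched 8 of the 9 symbols (not HMOX1). The 250 bases before each start were searched on both strands for TGACNNNGC, the core of the antioxidant response element, and GCGTG, the core of the xenobiotic response element that the aryl hydrocarbon receptor binds. TGACNNNGC was in 10.9% of 35116 promoter windows and GCGTG in 32.2%, and the motifs overlapped each other in 198 windows. TGACNNNGC was found before GCLM, before both starts of TXNRD1 and before 1 of 2 starts of KEAP1, and GCGTG before NFE2L2, KEAP1, GCLC, GCLM, TXNRD1 and OSGIN1. Neither was found before NQO1 and SRXN1. The windows below, in the gene's direction with matches on either strand in capitals, show the letters around each match, first for the 3 genes that rose with IAA and then for KEAP1, GCLM and TXNRD1, which did not pass the test by limma. GCGTG was found before genes of both kinds. Windows that lie wholly in exons of the gene itself in GENCODE 29 are not printed. These are the GCGTG match before the other start of NFE2L2, both TGACNNNGC matches of KEAP1, and the TGACNNNGC and GCGTG matches before the other start of TXNRD1. For the start behind the NFE2L2 window below, the bases that follow it were not found in a GENCODE 29 transcript of the gene. For every other start of these genes they were.
OSGIN1, chr16:83953076-83953120, + strand: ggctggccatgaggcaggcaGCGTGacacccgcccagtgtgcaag
OSGIN1, chr16:83953128-83953172, + strand: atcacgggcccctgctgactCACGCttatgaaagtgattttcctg
NFE2L2, chr2:177264242-177264286, - strand: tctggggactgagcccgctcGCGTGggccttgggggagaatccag
GCLC, chr6:53545250-53545294, - strand: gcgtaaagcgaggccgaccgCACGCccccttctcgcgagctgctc
GCLC, chr6:53545155-53545240, - strand: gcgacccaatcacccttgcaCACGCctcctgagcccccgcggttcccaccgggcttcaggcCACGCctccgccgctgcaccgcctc
KEAP1, chr19:10502936-10503005, - strand: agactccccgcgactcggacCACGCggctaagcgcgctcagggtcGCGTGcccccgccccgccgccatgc
KEAP1, chr19:10502874-10502918, - strand: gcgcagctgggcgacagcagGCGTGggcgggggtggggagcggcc
GCLM, chr1:93909436-93909484, - strand: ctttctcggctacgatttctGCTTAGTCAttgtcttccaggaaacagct
GCLM, chr1:93909565-93909652, - strand: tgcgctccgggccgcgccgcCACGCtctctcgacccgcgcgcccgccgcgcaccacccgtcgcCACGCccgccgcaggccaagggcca
TXNRD1, chr12:104215660-104215708, + strand: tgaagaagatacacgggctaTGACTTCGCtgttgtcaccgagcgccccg

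These letters are a description. No factor's binding was measured, and elements farther from the start lie outside these windows.

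IAA was first compared with control, to see which of these transcripts moved within 3 h. All 9 genes had a mean FPKM of at least 1, the minimum for testing. GCLC reached it, at 1.02, only through the IAA group, the group in which it was then called higher. Its means were 0.923 in control, 1.18 with IAA and 0.954 after washout, so its place among the genes tested was not independent of its rise. By limma on log2(FPKM + 1), 3 of the 9 rose and 0 fell at a Benjamini-Hochberg adjusted p under 0.05, beside 13.1% of the 8317 genes tested that changed, 6.64% higher and 6.49% lower. Their median log2 change was 0.13, against 0.014 for all genes tested. The groups did not overlap for 7 of the 9, 6 higher and 1 lower with IAA, where 61.9% of all genes tested did not overlap, so that count is near the background. In bulk RNA, fewer cells of a kind and less RNA per cell cannot be told apart.

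NFE2L2 (ENSG00000116044.11) FPKM were 1.37 and 1.31 in control libraries, 1.81 and 2.03 in IAA libraries and 1.25 and 1.36 in washout libraries. Both IAA libraries lay above the other 4, whose ranges overlapped. Its span is long, so these FPKM stand for many reads, 3756 and 3634 in control against 4902 and 5619 with IAA. NFE2L2 rose from 1.34 ± 0.0400 to 1.92 ± 0.158 FPKM (SD, n = 2, limma log2 change 0.32, SE 0.054, adjusted p = 0.0288). On recovered reads the log2 change was 0.51 (limma-voom adjusted p = 4.65e-10), since adding 1 to a low FPKM shrinks a change. Of the 9 other settings, libraries left out aside, 6 kept the call. It was missed without a filter (limma adjusted p = 0.0701), with the replicate block (0.0565) and with only the 2 groups compared (0.0582). Without any 1 of the 6 libraries limma did not call it, at adjusted p 0.0587 to 0.133. Exons of NFE2L2 overlap those of AGPS on the other strand in GENCODE 29, and no source used here names the strand counted. They also overlap exons of AC019080.1 on the same strand and of AC079305.1 on the other. AGPS stood at 0.801 FPKM in control and 0.687 with IAA.

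KEAP1 encodes the substrate receptor that marks NRF2 for degradation. KEAP1 (ENSG00000079999.9) FPKM were 7.28 and 7.02 in control libraries, 6.79 and 6.66 in IAA libraries and 7.58 and 7.27 in washout libraries. The IAA libraries were the lowest of the 6. The difference from control did not pass (limma log2 change -0.08, 95% interval -0.18 to 0.027, adjusted p = 0.259), and voom gave 0.25.

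GCLC (ENSG00000001084.6) FPKM were 0.954 and 0.891 in control libraries, 1.17 and 1.19 in IAA libraries and 0.958 and 0.950 in washout libraries, with IAA above the other 4 libraries. It rose from 0.923 ± 0.0446 to 1.18 ± 0.00952 FPKM (SD, n = 2, limma log2 change 0.18, SE 0.036, adjusted p = 0.0412). Of the other 9 settings 4 kept the call (limma-voom adjusted p = 5.20e-06, log2 change 0.35), and it was missed at up to 0.0848 under the rest and at 0.0844 to 0.159 without any 1 library. In GENCODE 29 its exons overlap those of long non-coding genes on either strand.

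The protein of GCLM pairs with that of GCLC. GCLM (ENSG00000023909.5) FPKM were 2.577 and 2.573 in control libraries, 2.603 and 2.648 in IAA libraries and 2.51 and 2.34 in washout libraries. The IAA libraries were the highest by a narrow margin, and no change was detected (limma log2 change 0.02, 95% interval -0.078 to 0.12, adjusted p = 0.758), with the sign turned when FPKM were rescaled to TPM or quantile normalized. Whether GCLC and GCLM responded differently was not tested.

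NQO1 (ENSG00000181019.8) FPKM were 26.8 and 28.6 in control libraries, 31.5 and 32.1 in IAA libraries and 27.2 in each washout library. IAA lay above the other 4 libraries, on 8894 to 10739 reads. The rise of 1.15-fold missed the threshold by limma (log2 change 0.19, 95% interval 0.075 to 0.31, adjusted p = 0.0581) and passed on recovered reads (voom log2 change 0.20, adjusted p = 4.71e-05).

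TXNRD1 (ENSG00000198431.11) had the most reads of the 9 genes, 13368 and 13515 in control libraries, 14295 and 14520 in IAA libraries and 13210 and 13360 in washout libraries. In FPKM these are 5.98 and 5.99, 6.46 and 6.44, and 5.88 and 5.97, again with IAA above the other 4. The difference of 1.08-fold did not pass by limma (log2 change 0.09, SE 0.032, adjusted p = 0.132) and passed by voom (adjusted p = 0.00845).

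SRXN1 (ENSG00000271303.1) FPKM were 3.13 and 2.54 in control libraries, 3.36 and 3.00 in IAA libraries and 2.89 and 2.76 in washout libraries, and its control libraries spread over most of that range. No change was detected (limma log2 change 0.13, 95% interval -0.10 to 0.36, adjusted p = 0.386). HMOX1 is a classic target of NRF2 and of the repressor BACH1. HMOX1 (ENSG00000100292.12) FPKM were 1.35 and 1.32 in control libraries, 1.31 and 1.35 in IAA libraries and 1.46 and 1.31 in washout libraries. Its groups overlapped throughout, on 299 to 337 reads per library, and the limma log2 change with IAA was -0.0016 (95% interval -0.11 to 0.11, adjusted p = 0.984).

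OSGIN1 (ENSG00000140961.8) FPKM were 1.197 and 1.28 in control libraries, 1.94 and 2.05 in IAA libraries and 1.601 and 1.537 in washout libraries. The groups did not overlap, with IAA highest, washout in the middle and control lowest. These values stand for 359 and 386, 575 and 622, and 483 and 462 reads. OSGIN1 rose from 1.24 ± 0.0554 to 2.00 ± 0.0830 FPKM (SD, n = 2, limma log2 change 0.42, SE 0.041, adjusted p = 0.0109). This call held under the other 9 settings tried (limma adjusted p 0.0108 to 0.0372, limma-voom on recovered reads 1.45e-06). It did not hold without control replicate 1 or 2 or IAA replicate 1 or 2, where the log2 change was 0.393 to 0.45. Exons of OSGIN1 overlap those of AC009119.2 on the same strand in GENCODE 29. Exons of SRXN1 overlap those of AL121758.1 on the same strand, and exons of NQO1 those of AC092115.2 on the other strand.

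**Figure D2:**
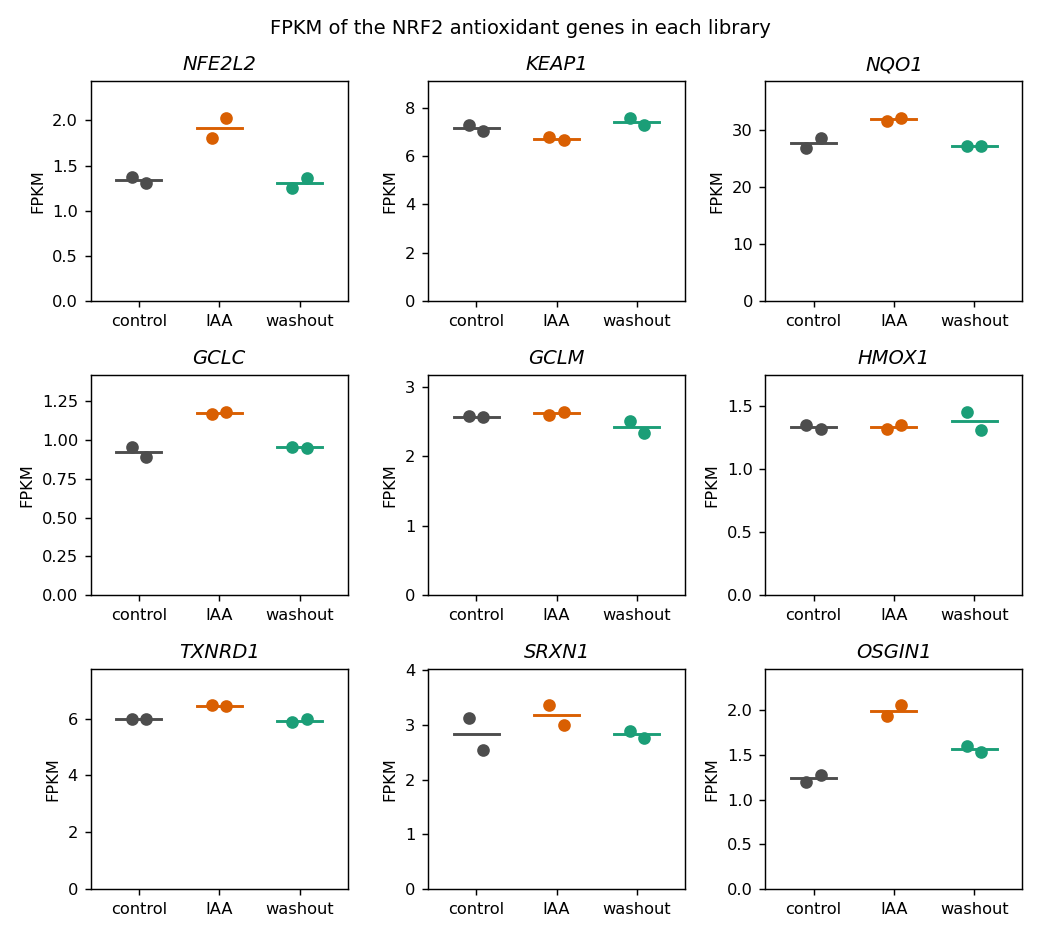
FPKM (linear axis from 0) of the 9 genes, with 1 point per library, a bar at the mean of each group of 2 and a colour per group. For NFE2L2, GCLC, NQO1 and TXNRD1 both IAA libraries lie above the other 4, OSGIN1 steps down from IAA over washout to control, and HMOX1 overlaps in all 3 groups.

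On recovered reads, where long genes are not held back by the added 1 and 14806 genes could be tested, voom called 5 of the 9 higher with IAA (OSGIN1, NFE2L2, GCLC, NQO1 and TXNRD1) and 0 lower, beside 23.9% of genes changed in either direction. The scaling matters for the share of genes called higher. Of the 1092 genes that limma called, 50.5% were higher, and of the 1044 called after rescaling to TPM 38.0% were. With TPM, OSGIN1 and NFE2L2 still passed and GCLC did not. FPKM summed to 208014 to 216997 per library, below the sum of TPM, so with TPM the added 1 also weighed less. GCLC did not pass with a pseudocount of 0.1 either (limma adjusted p = 0.0595). Its loss with TPM can therefore not be laid to the scaling alone.

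NQO1 and NFE2L2 are also targets of the aryl hydrocarbon receptor. CYP1A1, the classic gene of that receptor, had 60 and 50 reads in control libraries, 2560 and 2898 in IAA libraries and 58 and 51 in washout libraries. The part of that receptor in the changes of NQO1 and NFE2L2 was not tested.

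Beyond the 9 genes, lists of NRF2 biology held 92 genes, all in the table, of which 43 passed the filter. With IAA 8 of these rose, 2 fell and 33 did not pass, with a median log2 change of 0.022 against 0.014 for all genes tested. These 10 are 23.3% of the 43, beside 13.1% of all genes tested. On recovered reads voom tested 77 and had 15 higher and 9 lower, 31.2% beside 23.9% of all genes. The lists were written from general knowledge with earlier results of these data known.

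The list of NRF2 control had 5 of 11 tested genes higher and 1 lower by limma (13.1% of all genes changed), and 8 of 18 higher and 3 lower by voom (23.9%). MAFG and MAFF, small MAF proteins that pair with NRF2, rose from 10.7 ± 0.770 to 17.1 ± 0.316 FPKM and from 3.04 ± 0.00806 to 5.24 ± 0.0790 FPKM (SD, n = 2, limma adjusted p = 0.0165 and 0.00607). The other small MAF, MAFK, stood at 3.51 in control and 2.79 with IAA FPKM without passing by limma (adjusted p = 0.128), and was lower by voom (log2 change -0.34, adjusted p = 0.00661). NFE2L1, a relative of NRF2 that raises proteasome genes, rose 1.25-fold from 26.2 ± 0.423 FPKM (limma adjusted p = 0.015), and SYVN1, an ER ubiquitin ligase, 1.34-fold (limma adjusted p = 0.0386). SQSTM1, an autophagy receptor that binds KEAP1, rose from 15.7 to 18.1 FPKM (limma adjusted p = 0.0428), and PALB2, a DNA repair protein that also binds KEAP1, fell from 1.18 to 0.857 FPKM (limma adjusted p = 0.0443). SQSTM1, PALB2 and MAFK were picked for naming after their values were seen, and their tests were not repeated with libraries left out. The calls of MAFF, MAFG, NFE2L1 and SYVN1 were lost without either control or either IAA replicate (limma adjusted p up to 0.0659, 0.0906, 0.0878 and 0.156). In GENCODE 29 exons of MAFG overlap those of SIRT7 and exons of SYVN1 those of FAU and MRPL49.

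Of 7 tested glutathione genes 2 rose and 0 fell by limma (13.1% of all genes changed), whereas voom had 3 of 14 higher and 2 lower, GSR and OPLAH (23.9%). GSTP1, a glutathione transferase, rose from 67.6 ± 1.55 to 80.5 ± 1.29 FPKM (SD, n = 2, limma adjusted p = 0.0297), and CHAC1, which degrades glutathione and is a target of the integrated stress response, from 1.90 ± 0.144 to 3.53 ± 0.145 FPKM (limma adjusted p = 0.0204). Without 1 library limma adjusted p reached 0.131 for GSTP1 and 0.106 for CHAC1. CHAC1 rests on a mean of 112.5 reads in control and 208 with IAA. SLC7A11, the cystine transporter that feeds glutathione synthesis, lay below the filter and was picked after its values were seen. Its reads numbered 1074 and 1043 in control libraries, 1746 and 1733 in IAA libraries and 876 and 829 in washout libraries (voom log2 change 0.72 with IAA, adjusted p = 4.68e-11).

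Among 6 tested genes that make or recycle NADPH, 1 rose, IDH1, from 2.02 ± 0.0380 to 2.50 ± 0.0335 FPKM (SD, n = 2, limma adjusted p = 0.0227), without a call when any 1 library was left out (up to 0.111). The 1 call among 6 is 16.7%, beside 13.1% of all genes tested. Voom tested 7 and had the same 1 higher, 14.3% beside 23.9% of all genes. Of 2 tested exporters 1 fell by limma (13.1% of all genes changed), ABCC2, which carries glutathione conjugates out of the cell. Voom tested 6 and had ABCC1, ABCC2 and ABCC4 lower and ABCC5 higher (23.9% of all genes). ABCC2 went from 4.44 ± 0.136 to 2.43 ± 0.0327 FPKM (SD, n = 2, limma log2 change -0.67, adjusted p = 0.00351), a call that held under all 15 other settings, libraries left out included. No gene passed among 5 tested thioredoxin genes, 5 of quinones and carbonyls, 6 of heme and iron and 1 other NRF2 target (13.1% of all genes changed). Of 9 antioxidant enzymes listed as not tied to NRF2, 0 passed beside the same 13.1%. That label came from general knowledge, and control of these genes by NRF2 was not tested. SOD1, a superoxide dismutase, stood at 17.7 against 15.6 FPKM (limma adjusted p = 0.0518). On recovered reads, beside 23.9% of all genes, voom had 1 of 8 thioredoxin genes higher (SESN1), 0 of 11 of quinones and carbonyls changed, 1 of 9 of heme and iron higher (FECH) and 1 of 4 other targets lower (TRIM16). Of the 9 antioxidant enzymes listed as not tied to NRF2 it had GPX8 and SOD1 higher and PRDX3 lower. GSR, OPLAH, ABCC1, ABCC4, ABCC5, SESN1, FECH, TRIM16 and PRDX3 were picked for naming by their voom calls.

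**Figure D3:**
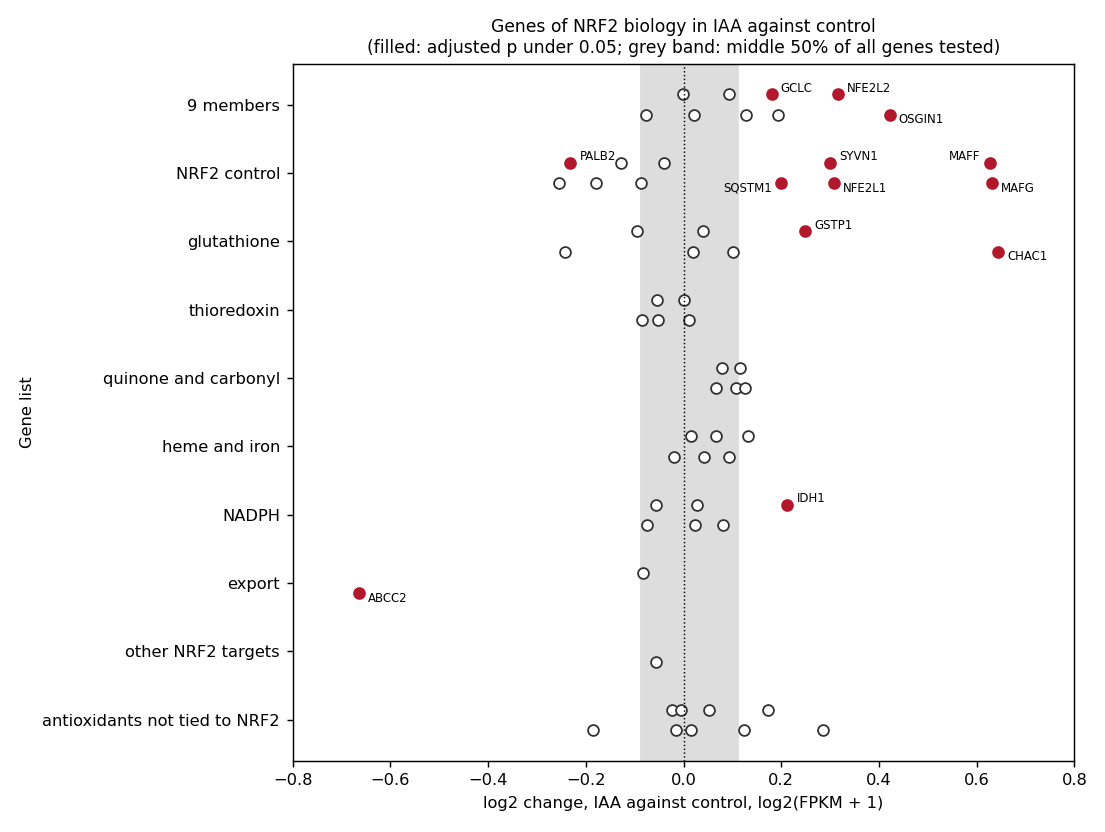
Log2 change on log2(FPKM + 1) in IAA against control (horizontal axis) for each tested gene of the 9 members and of each list (rows), filled where the adjusted p is under 0.05. The grey band holds the middle 50% of all genes tested, and MAFF, MAFG and CHAC1 lie farthest right and ABCC2 farthest left.

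Washout was then compared with IAA, to see which levels returned once IAA was removed, and this comparison shares the IAA libraries with the comparison above. Of the 9 genes 0 rose and 3 fell by limma, beside 14.4% of all genes that changed, 7.73% higher and 6.65% lower. Groups did not overlap for 8 of the 9 (1 higher, 7 lower), beside 62.1% of all genes. NFE2L2 fell to 1.31 ± 0.0796 FPKM, 0.681 of its level with IAA (SD, n = 2, limma log2 change -0.34, SE 0.054, adjusted p = 0.025). OSGIN1 fell to 1.57 ± 0.0449 FPKM (limma log2 change -0.22, SE 0.041, adjusted p = 0.0337) and NQO1 to 27.2 ± 0.0347 FPKM (limma log2 change -0.22, adjusted p = 0.0433). GCLC stood at 0.954 ± 0.00514 FPKM and missed the threshold (limma adjusted p = 0.0532). Leaving out any 1 of the 6 libraries ended all 3 calls, with limma adjusted p of 0.06 to 0.107 for NFE2L2, 0.0656 to 0.133 for OSGIN1 and 0.0639 to 0.158 for NQO1.

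On recovered reads voom called 5 of the 9 lower after washout (OSGIN1, NFE2L2, GCLC, NQO1 and TXNRD1) and 1 higher, KEAP1 (log2 change 0.14, adjusted p = 0.047), beside 25.1% of genes. By limma KEAP1 stood at 1.10-fold (adjusted p = 0.106). After rescaling to TPM 66.8% of calls between washout and IAA were higher in place of 53.8%, and 1 of the 9 genes, NFE2L2, passed. Of the 43 tested genes in the lists 7 fell, CHAC1, GSTP1, IDH1, MAFF, MAFG, NFE2L1 and SYVN1, and ABCC2 rose, 18.6% beside 14.4% of all genes tested. By voom the balance was closer to even, with 10 of 77 higher and 12 lower (28.6% beside 25.1%). MAFF and MAFG went to 3.28 ± 0.203 and 10.4 ± 1.03 FPKM (SD, n = 2, limma adjusted p = 0.00808 and 0.0152), and ABCC2 to 4.08 ± 0.111 FPKM (limma adjusted p = 0.00524, and 0.052 without IAA replicate 2). CHAC1 fell to 1.28 ± 0.266 FPKM (limma log2 change -0.99, adjusted p = 0.00994). Of the 9 antioxidant enzymes listed as not tied to NRF2, SOD1 and GPX8 fell, to 14.8 ± 0.173 and 5.20 ± 0.156 FPKM (limma adjusted p = 0.025 and 0.0347). With each of the 6 libraries left out in turn, ABCC2 kept its call in 5 fits, MAFF and CHAC1 in 4, MAFG, NFE2L1 and GPX8 in 2, and GSTP1, IDH1, SYVN1 and SOD1 in 0 (limma adjusted p up to 0.16).

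**Figure D4:**
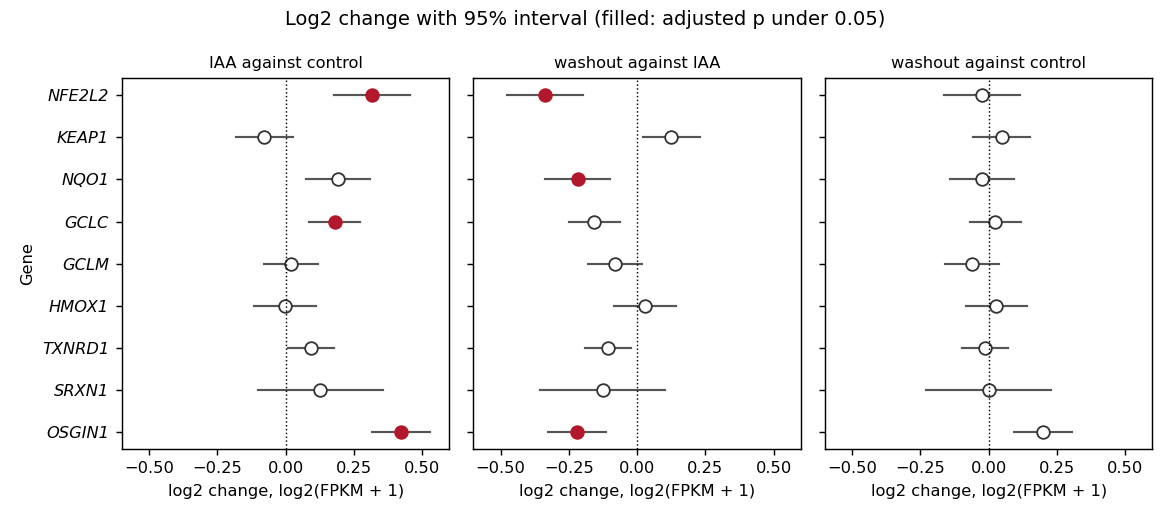
Log2 change on log2(FPKM + 1) of the 9 genes in each comparison, with the 95% interval from limma as a line and filled points where the adjusted p is under 0.05. OSGIN1, NFE2L2 and GCLC are filled on the right in IAA against control, NFE2L2, NQO1 and OSGIN1 on the left in washout against IAA, and 0 of the 9 in washout against control.

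Last, washout was compared with control, to see what remained 48 h after IAA was removed. This comparison shares its libraries with both others. By limma 0 of the 9 genes changed, beside 0% of all genes tested (750 at an unadjusted p under 0.05), and by voom 0 of the 9, beside 0.608% of genes. Groups did not overlap for 3 of the 9, 1 higher and 2 lower, beside 42.2% of all genes. The gene that was higher was OSGIN1, 1.27-fold above control without passing (limma log2 change 0.20, 95% interval 0.094 to 0.31, adjusted p = 0.507, voom adjusted p = 0.131). Its washout mean kept 43.8% of the difference between IAA and control in FPKM, against 12.3% for GCLC and -6.25% for NFE2L2, where a negative share lies below control. These shares have no test. For NFE2L2 the interval of the log2 difference from control was -0.16 to 0.12 (limma, adjusted p = 0.91). SLC7A11 was the 1 gene of the lists that voom called, lower than control by a log2 change of -0.31 (adjusted p = 0.0279).

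On log2(FPKM + 1), the genes whose 6 values moved most like those of NFE2L2 were BRD2, NSUN5P1, NUFIP2, NRBP1 and ETV3. Likeness was the Euclidean distance between centred log2(FPKM + 1) values over the 6 libraries, which was 0.0664 for BRD2 and 0.0819 for ETV3 against a median of 0.428 over all genes. Adding 1 shrinks changes at low FPKM, so genes near each other on this scale can differ in fold change, here and for NQO1 below. BRD2 went from 42.95 and 43.9 FPKM in control to 53.3 and 55.6 with IAA, and NFE2L2 from 1.37 and 1.31 to 1.81 and 2.03. Among the other 8 members NQO1 was nearest to NFE2L2 at 0.184, ranked 260 of all tested genes, and KEAP1 the farthest at 0.517. For NQO1, the gene with the highest mean FPKM, the nearest were EDC3, C12orf23, RPS4XP3, CDC34 and SOD1, at 0.0478 to 0.0566. SOD1 FPKM were 15.3 and 15.8 in control libraries, 17.6 and 17.8 in IAA libraries and 14.7 and 14.9 in washout libraries. NSUN5P1 and RPS4XP3 are pseudogenes, whose reads can be shared with near-identical copies, so their values are uncertain.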

How the data were processed

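The values are FPKM, 1 per gene and library, in the table the authors deposited. Per the submitters' processing notes HISAT, Bowtie2, HTSeq and edgeR were used on hg19, and no source used here gives their versions, roles, annotation, strand or filters. The 8317 genes whose FPKM averaged 1 or more across the 6 libraries entered limma 3.58.1 (R 4.3.3), applied to log2(FPKM + 1). The fit had a trended prior, a mean per group, 3 residual and 1.81 prior degrees of freedom, and p-values were adjusted by Benjamini-Hochberg over all genes tested.

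Reads were recovered from the FPKM steps (tolerance 0.02 reads). Of 21707 genes above 0, the GENCODE 29 span fixed 16866, 2939 took the nearest whole solution (TXNRD1 and GCLM among them) and 1902 the smallest. The 14806 genes averaging 10 reads or more were tested with limma-voom. GENCODE 29 is on another build than the expression table, so only lengths, names and exon overlaps were taken from it for that table. It held 94.3% of the gene IDs. For the promoter windows, which are on the build of GENCODE 29, its exon positions and transcript sequences were used as well. Read recovery and the limma fit on log2(FPKM + 1) were tested on simulated data, voom was not.

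The members and lists were chosen with earlier results of these data known. All members were named, from each list at most 4 genes that passed in any comparison, the largest changes first, and the 5 genes nearest to NFE2L2 and to NQO1. Exceptions from the lists of NRF2 biology are marked where they occur. Alternatives were pseudocounts, filters, scalings, voom, a replicate block, fits of 2 groups and leaving out each library. Python 3.11.15 made the tables and figures.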

Additional observations from a re-analysis of the deposited data

How the results depend on the processing

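With 2 libraries a group the calls rest on few degrees of freedom. Genes changed between IAA and control numbered 1092 by limma, 3534 on recovered reads, 486 with the replicate block, 536 with only the groups compared, and 50 to 534 without 1 library. Members changed numbered 3, and 5 on recovered reads, 1 without a filter, 1 with the replicate block, 1 with only the groups compared, and 0 to 1 without 1 library. Between washout and IAA genes changed numbered 1196, and 3722 on recovered reads, 532 with the block, 413 with only the groups compared and 46 to 421 without 1 library. Members changed numbered 3, and 6 on recovered reads, 1 after rescaling to TPM, and 0 without a filter, with the block, with only the groups compared and without 1 library. Between washout and control genes changed numbered 0, and 28 at a mean FPKM of at least 0.1, 48 without a filter and 90 on recovered reads. The cause of these differences was not tested, except that leaving out a library or group removes degrees of freedom.

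Replicate numbers do not pair the libraries in the labels, and deviations of libraries with the same number correlated at 0.0432, -0.0269 and 0.00601 between groups.

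Signs turned only for changes that did not pass (limma adjusted p of at least 0.755). For IAA against control these were GCLM with TPM (-0.0061) or quantile normalization (-0.00015) and HMOX1, at -0.0136 to 0.0105 without 1 library. HMOX1 ran from -0.014 to 0.0744 in washout against IAA. In washout against control SRXN1 turned with a pseudocount of 5 (-0.00076) and quantile normalization (-0.017), and IDH1 with quantile normalization (-0.00047). Without 1 library the ranges there were -0.11 to 0.111 for SRXN1, -1.94e-05 to 0.0473 for GCLC, -0.152 to 0.0117 for GPX8, -0.0156 to 0.0729 for HMOX1, -0.127 to 0.0561 for MAFG, -0.0578 to 0.0127 for NFE2L2, -0.0695 to 0.0192 for NQO1 and -0.123 to 0.0287 for SYVN1.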
